A study of Mus musculus with 9 samples.

Results

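The 6 arrays of preSC that carry a MYC retrovirus fell into a Pvt1-high and a Pvt1-low side that cut across their labels. The sides were chosen by measured values: the brightest Pvt1 probe set lay above 10 on the log2 scale in C-Myc-preSC 1, N-Myc-preSC 1 and N-Myc-preSC 2, and below 10 in C-Myc-preSC 2, L-Myc-preSC 1 and L-Myc-preSC 2. These are 6 of the 9 arrays of the series, and the other 3 are of untransduced preSC. Of 12976 genes tested, 346 switched with the Pvt1 state: 106 (0.817%) were higher and 240 (1.85%) lower in the Pvt1-high arrays. A gene was counted as switching where all 3 arrays of one side lay above all 3 of the other and the nearest arrays of the sides were at least 1 apart on the log2 scale, a 2-fold gap. Because the sides were selected on measured expression, every difference between them is a description, and no test is attached to it.

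The cells are preneoplastic neuroendocrine cells from mouse lung, of mixed C57BL/6 and 129/Sv background, grown in culture without stroma. All 9 arrays share the Rb/p53/p130 genotype: the cells came from the lungs of mice conditional for these genes, after Adeno-Cre virus had been given. Retroviruses carrying L-Myc, C-Myc and N-Myc were each put into such cells and measured on 2 arrays, and the labels describe the L-Myc cells as transformed. The labels name no empty-vector control, no clone and no shared culture. RNA was measured on Affymetrix Mouse430_2 arrays, and values below are on the log2 scale of the RMA method, so the number of arrays and not a read depth limits the precision.

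Pvt1 is a long noncoding RNA gene that lies next to Myc. The pair are often amplified together in tumours, Pvt1 is a frequent site of retroviral insertion in mouse tumours, and its promoter can compete with that of Myc for shared enhancers. Lung neuroendocrine cells are thought to be a main source of small cell lung cancer, in which amplification of a MYC family gene is frequent.

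The arrays did not differ equally from each other, and this bears on every count below. N-Myc-preSC 1 and 2 differed at least 2-fold at 5 genes, and C-Myc-preSC 1 differed from them at 98 and 103. On the other side, L-Myc-preSC 2 and C-Myc-preSC 2 differed at 17 genes although their labels name different retroviruses. L-Myc-preSC 1 differed from them at 1127 and 1190 genes, where C-Myc-preSC 1 and C-Myc-preSC 2 differed at 1417. The 6 arrays therefore formed a close trio, a close pair and 1 array apart. The untransduced arrays were uneven too: preSC 1 and 2 differed at 4 genes, and preSC 3 differed from them at 961 and 926. Whether the close arrays came from separate cultures is not given by the labels. Each side, and the preSC set, may therefore hold fewer than 3 independent samples. The 17 genes that separated L-Myc-preSC 2 from C-Myc-preSC 2 included Myc, at 7.29 and 10.68, and Pvt1, at 6.29 and 7.52. Neurog3, an endocrine progenitor factor, was 9.50 and 8.34 in the same arrays, and the homeobox gene Nkx6-1 7.53 and 6.29. Neurog3 and Nkx6-1 were named after their values were seen.

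Pvt1 was 13.11 in C-Myc-preSC 1, 13.58 in N-Myc-preSC 1 and 13.63 in N-Myc-preSC 2. It was 7.52 in C-Myc-preSC 2, 5.67 in L-Myc-preSC 1 and 6.29 in L-Myc-preSC 2. The untransduced preSC arrays, which the rule did not use, were 5.84, 6.69 and 5.40. The arrays nearest the limit of 10 were thus far from it, C-Myc-preSC 1 inside and C-Myc-preSC 2 outside, and of the Pvt1-low arrays only C-Myc-preSC 2 lay above the preSC arrays. The 5 Pvt1 probe sets gave the same sides, with differences of the side means between 5.90 and 7.61.

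Myc was higher in all 3 Pvt1-high arrays than in the Pvt1-low arrays, but its sides were less than 1 apart. Its probe set read 11.22 in C-Myc-preSC 1, 11.96 in N-Myc-preSC 1 and 11.40 in N-Myc-preSC 2, against 10.68 in C-Myc-preSC 2, 5.63 in L-Myc-preSC 1 and 7.29 in L-Myc-preSC 2. The preSC arrays were 6.50, 6.82 and 8.13. C-Myc-preSC 2 therefore carried a Myc signal only 0.53 under the lowest Pvt1-high array, while its Pvt1 signal was 5.60 below. The highest Myc values were those of the N-Myc arrays. Whether the Myc probe set read retroviral transcripts in these or in the C-Myc arrays was not tested. Over the label groups, Myc rose by 4.53 (SE 0.61, limma adjusted p = 0.00427) in N-Myc-preSC and by 3.80 (SE 0.61, limma adjusted p = 0.00717) in C-Myc-preSC against preSC.

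The probe sets of Mycn disagreed with each other, while those of Mycl were all lower in the Pvt1-high arrays. The brightest Mycn probe set was high in every transduced array, at 11.07 to 13.54 against 6.37 to 6.89 in preSC, and was lower in the N-Myc arrays (11.64 and 11.07) than in the L-Myc and C-Myc arrays. Another Mycn probe set stood out in the N-Myc arrays alone, at 9.05 and 8.46 against 5.79 to 6.39 in the 7 others. A remaining Mycn probe set was 5.38, 5.62 and 5.47 in the Pvt1-high arrays and 6.86 to 8.02 in the Pvt1-low arrays, a gap of 1.24 downwards. For Mycl, the second-brightest probe set was 11.79 and 12.74 in the L-Myc arrays and 8.52 in C-Myc-preSC 2. It was 6.68, 6.98 and 7.24 in the Pvt1-high arrays, a gap of 1.28 downwards. The brightest Mycl probe set was 7.54 in C-Myc-preSC 1, 8.21 in N-Myc-preSC 1 and 8.19 in N-Myc-preSC 2, against 8.92 in C-Myc-preSC 2, 8.56 in L-Myc-preSC 1 and 8.78 in L-Myc-preSC 2, and 8.65 to 9.03 in preSC. The gaps of the brightest and the dimmest Mycl probe set were 0.35 and 0.30, so all 3 followed the split and only the second-brightest passed 1. Which of these probe sets read retroviral transcripts was not tested.

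**Figure D1:**
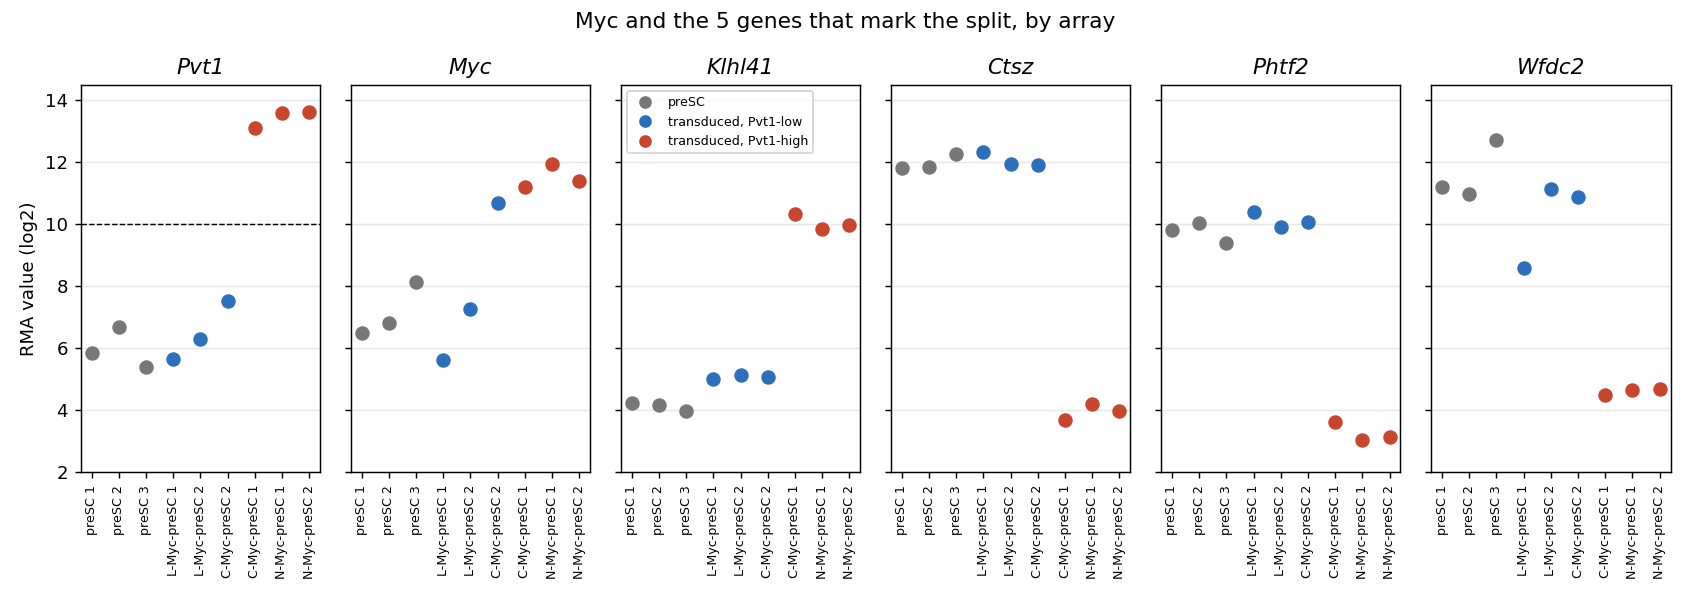
RMA values on the log2 scale (vertical axis) of Pvt1, Myc, Klhl41, Ctsz, Phtf2 and Wfdc2 in each of the 9 arrays (horizontal axis); each point is 1 array, grey for preSC, blue for Pvt1-low and red for Pvt1-high transduced arrays, and the dashed line marks the limit of 10. Ctsz, Phtf2 and Wfdc2 are low and Klhl41 is high in the 3 red arrays, while Myc in C-Myc-preSC 2 (10.68) stands next to the red arrays.

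The neighbours of Pvt1 in gene order were mixed. Among the 6 tested genes on either side of it on chromosome 15, Lratd2 and the gene listed as Macroh2a3 were higher switch genes (0.817% over all genes). Lratd2, the nearest tested gene beyond Myc, was 11.64 in C-Myc-preSC 1, 13.18 in N-Myc-preSC 1 and 12.83 in N-Myc-preSC 2, and 9.27 in C-Myc-preSC 2, 8.62 in L-Myc-preSC 1 and 9.22 in L-Myc-preSC 2. The preSC arrays, at 10.38, 10.72 and 10.87, lay between the sides. Macroh2a3, the next tested gene on the other side of Pvt1, was 9.66 to 9.94 in the Pvt1-high and 8.44 to 8.59 in the Pvt1-low arrays. Trib1, a pseudokinase gene, was higher by 0.89 on average, but its nearest arrays were only 0.04 apart. Nsmce2 differed by -0.11, Cyrib by 0.01 and Washc5 by 0.23, all with overlapping sides, while Efr3a differed by -0.68 with a gap of 0.44. The size of the Pvt1 difference was therefore not shared by the chromosome around it, whose 525 tested genes had a median difference of 0.14.

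The largest gaps on the array lay on the lower side. Ctsz, which encodes the lysosomal cysteine protease cathepsin Z, was 3.69 in C-Myc-preSC 1, 4.20 in N-Myc-preSC 1 and 3.97 in N-Myc-preSC 2, against 11.90 in C-Myc-preSC 2, 12.34 in L-Myc-preSC 1 and 11.94 in L-Myc-preSC 2. The preSC arrays, at 11.81, 11.84 and 12.27, stood with the Pvt1-low side. The Pvt1-high values lay under the 40th percentile of the arrays (5.28 to 5.34), so Ctsz was among the bright signals on one side and dim on the other. Its 2 other probe sets differed by -5.44 and -6.30, with the same sides.

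Phtf2, a putative homeodomain transcription factor gene, read 3.62 in C-Myc-preSC 1, 3.06 in N-Myc-preSC 1 and 3.13 in N-Myc-preSC 2. The Pvt1-low values were 10.09 in C-Myc-preSC 2, 10.39 in L-Myc-preSC 1 and 9.91 in L-Myc-preSC 2, and the preSC arrays read 9.81, 10.04 and 9.41, so the preSC arrays again stood with the Pvt1-low side. The other Phtf2 probe set differed by -3.76. Wfdc2, which encodes a secreted whey acidic protein family member made by airway epithelium, was 4.48 in C-Myc-preSC 1, 4.67 in N-Myc-preSC 1 and 4.70 in N-Myc-preSC 2. It was 10.87 in C-Myc-preSC 2, 8.59 in L-Myc-preSC 1 and 11.13 in L-Myc-preSC 2, so the Pvt1-low side was itself uneven, and the preSC arrays ran from 10.98 to 12.74.

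Klhl41, a kelch-repeat gene known from skeletal muscle, went the other way. It was 10.33 in C-Myc-preSC 1, 9.86 in N-Myc-preSC 1 and 9.97 in N-Myc-preSC 2, against 5.08 in C-Myc-preSC 2, 5.02 in L-Myc-preSC 1 and 5.13 in L-Myc-preSC 2. The preSC arrays were lower still, at 4.25, 4.19 and 3.97. Of 33 muscle genes with a probe set, 15 lay under the 40th percentile on all 9 arrays, among them Myod1, Myog, Ttn and Neb. Of the 18 tested, Klhl41 and the myosin gene Myh7 were higher switch genes, as were 0.817% of all genes. The list had a median difference of 0.08, against 0.02 over all genes tested. With 1 array left out it ran from 0.01 (without N-Myc-preSC 1) to 0.12 (without C-Myc-preSC 1).

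The promoters of Klhl41, Ctsz and Phtf2 are shown because these genes share a near on-or-off pattern but not their base composition. RefSeq (GRCm38.p6) gives 300-base windows around the gene start, mostly upstream of it, printed 5′ to 3′ on the gene's strand with each CG dinucleotide in capitals. Klhl41 is on the plus strand at chr2:69669870-69670169, Ctsz on the minus strand at chr2:174438990-174439289, and Phtf2 on the minus strand at chr5:20882075-20882374.
Klhl41: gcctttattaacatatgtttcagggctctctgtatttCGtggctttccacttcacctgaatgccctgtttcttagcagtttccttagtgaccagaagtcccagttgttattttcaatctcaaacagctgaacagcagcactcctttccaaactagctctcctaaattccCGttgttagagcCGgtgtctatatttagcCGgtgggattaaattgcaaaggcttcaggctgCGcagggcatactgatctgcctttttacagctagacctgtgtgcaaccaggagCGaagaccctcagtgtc
Ctsz: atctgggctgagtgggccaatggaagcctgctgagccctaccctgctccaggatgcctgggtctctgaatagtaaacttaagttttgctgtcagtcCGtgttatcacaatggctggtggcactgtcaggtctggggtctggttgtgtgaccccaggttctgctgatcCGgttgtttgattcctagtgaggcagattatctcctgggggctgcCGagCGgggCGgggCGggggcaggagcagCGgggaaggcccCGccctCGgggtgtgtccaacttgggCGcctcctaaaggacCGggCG
Phtf2: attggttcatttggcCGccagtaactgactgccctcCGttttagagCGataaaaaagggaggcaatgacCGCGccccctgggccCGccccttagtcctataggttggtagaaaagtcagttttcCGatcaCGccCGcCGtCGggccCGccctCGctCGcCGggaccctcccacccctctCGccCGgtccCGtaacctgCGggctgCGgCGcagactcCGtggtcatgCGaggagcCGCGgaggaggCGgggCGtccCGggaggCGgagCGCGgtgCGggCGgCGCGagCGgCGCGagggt
These windows hold 6, 12 and 38 CG dinucleotides and have a GC content of 46.3%, 61.0% and 68.7%. The letters CACGTG, an E-box that MYC proteins bind with MAX and which reads the same on both strands, are in none of the 3 windows. Over the tested genes with a promoter in the table, 10.0% of 10409 windows hold CACGTG, against 4 of 79 (5.06%) for higher and 16 of 193 (8.29%) for lower switch genes and 7 of 59 (11.9%) for those of the lower genes that were under the 40th percentile in all 3 Pvt1-high arrays. Windows with a GC content above 50% and an observed to expected CG ratio above 0.6 made up 67.4% of all, 54.4% of the higher and 57.0% of the lower switch genes. Among the same 59 lower and dim genes the share was 25 (42.4%). The 59 were chosen for being dim in 3 arrays and were not compared with other genes that are as dim. Nothing is read from their shares. DNA methylation was not measured, and a match of letters is no site.

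**Figure D2:**
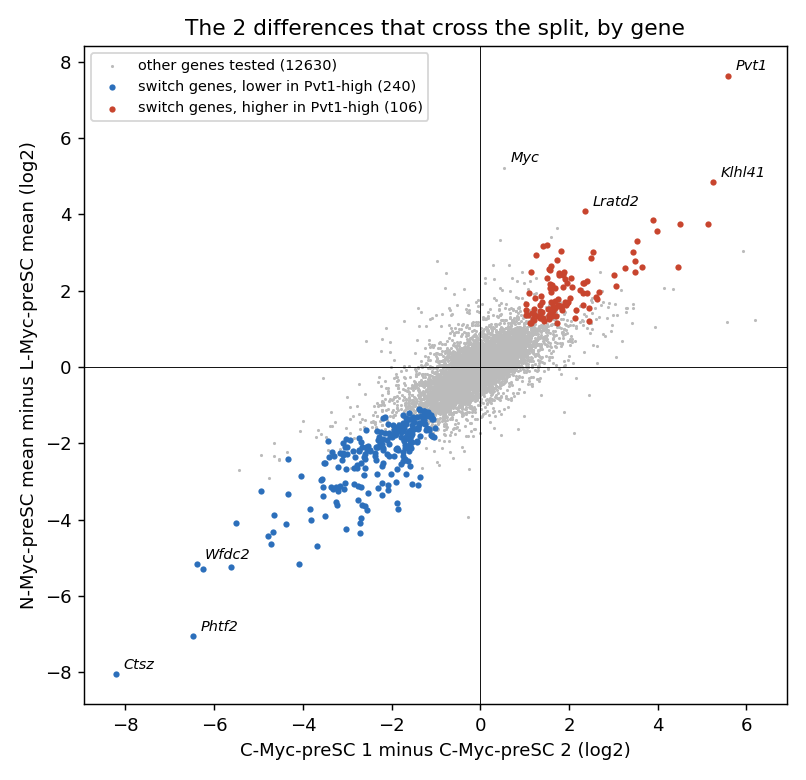
Each point is 1 of 12976 genes, with the difference C-Myc-preSC 1 minus C-Myc-preSC 2 on the horizontal axis and the N-Myc-preSC mean minus the L-Myc-preSC mean on the vertical axis, both on the log2 scale. The 106 higher (red) and 240 lower (blue) switch genes were selected to lie in the upper right and lower left; Myc lies at 0.53 on the horizontal and 5.22 on the vertical axis.

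The sides did not overlap at many more genes than the switch genes: 2710 of 12976 (20.9%) were higher and 2612 (20.1%) lower in all 3 Pvt1-high arrays. With a gap of 2, 12 and 57 genes remained. The members nearest the limit of 1 were Tbc1d4 (gap 1.01) and Dtx1 (1.01) inside and Pcp4l1 (0.999) and Tenm1 (0.997) outside. The other, dim probe set of Dtx1 differed by 0.18. Leaving out L-Myc-preSC 1, the array that stands apart, gave 291 higher and 484 lower genes, and leaving out an array can only keep or raise these counts. The median size of the difference was 1.85 for the higher and 2.08 for the lower switch genes. C-Myc-preSC 1 minus C-Myc-preSC 2 gave median sizes of 1.74 and 2.01, and N-Myc minus L-Myc arrays 1.81 and 2.08. The rule forces both of these differences to be at least 1 in the same direction, so nothing is read from their likeness. A second probe set existed for 52 of the higher and 154 of the lower genes. It had the same sign for 49 and 141 of them, and its sides did not overlap for 44 and 126.

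The preSC arrays took part in the choice of probe set and in the filter on dim genes, but not in the gap that chose the members. For 189 of the 240 lower genes (78.8%) all 3 preSC arrays lay on the Pvt1-low side of the midpoint between the sides, and for 15 (6.25%) all 3 lay on the Pvt1-high side. Among the 106 higher genes, 65 (61.3%) had all 3 preSC arrays on the Pvt1-low side and 12 (11.3%) on the Pvt1-high side. For the genes whose sides did not overlap but whose gap was under 1, the shares on the Pvt1-low side were 60.7% of 2372 lower and 53.4% of 2604 higher genes. Of the lower switch genes, 69 lay under the 40th percentile in all 3 Pvt1-high arrays, and 17 of the higher ones did so in all 3 Pvt1-low arrays.

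Comparisons of the labelled groups with preSC were fitted with limma to all 9 arrays. N-Myc-preSC passed an adjusted p of 0.05 at 12.5% of the genes as higher and 16.4% as lower, C-Myc-preSC at 9.91% and 13.6%, and L-Myc-preSC at 5.44% and 8.03%. Of the 106 higher switch genes, 49 rose and 1 fell in N-Myc-preSC, 6 rose and 3 fell in C-Myc-preSC, and 1 rose and 6 fell in L-Myc-preSC. Among the 240 lower switch genes, 162 fell in N-Myc-preSC and 52 in C-Myc-preSC, with 0 rising in either, and 3 fell and 7 rose in L-Myc-preSC. The transduced arrays entered the choice of members, so nothing is read from these counts. In C-Myc-preSC the group mean combines 1 array of each side: the difference from preSC was 7.63 for Pvt1 and -7.88 for Ctsz in N-Myc-preSC, and 4.34 and -4.17 in C-Myc-preSC, given without a test because these genes mark the sides. The series text names biological replicates without saying what they are, and the p-values measure only how far these arrays scatter, which may be technical.

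**Figure D3:**
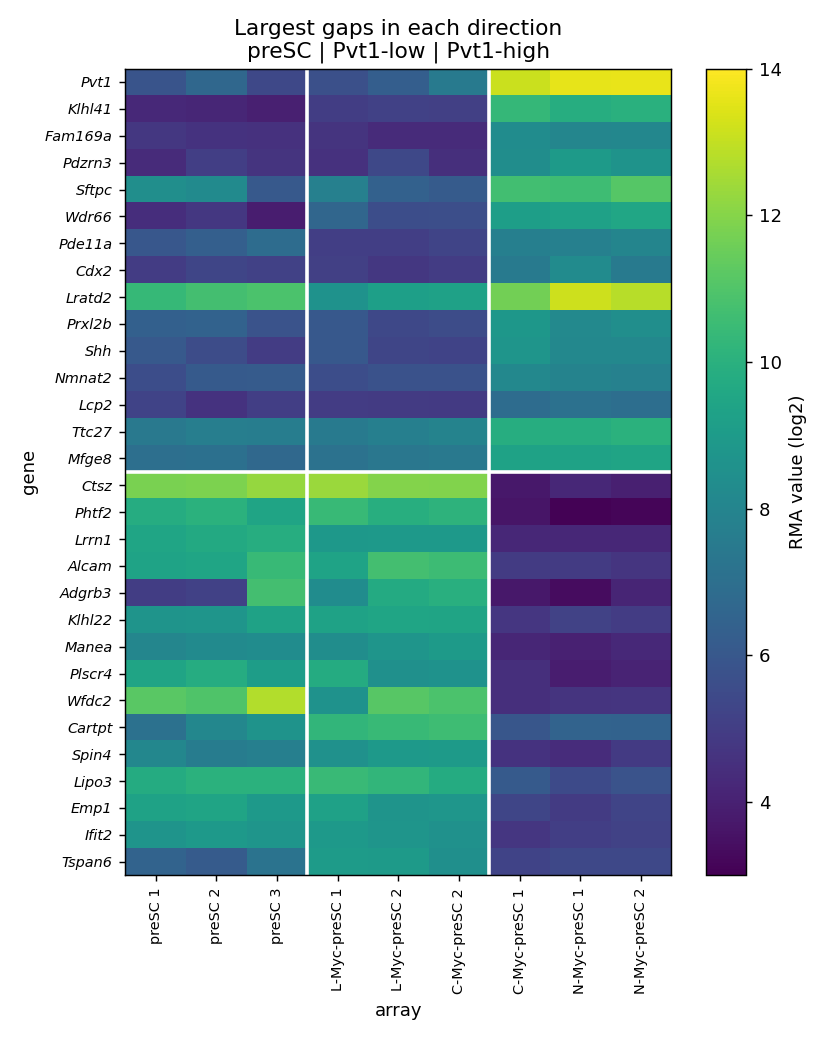
RMA values on the log2 scale (colour) of the 15 named genes with the largest gap in each direction (rows), in the 9 arrays (columns), with white lines between preSC, Pvt1-low and Pvt1-high arrays and between the directions. Ctsz, Phtf2, Lrrn1, Alcam and Klhl22 are brighter in all preSC and Pvt1-low arrays than in the 3 Pvt1-high arrays, while Adgrb3 was 4.99 and 5.14 in preSC 1 and 2 and 10.72 in preSC 3.

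Signalling and developmental genes were among the largest on the higher side. Shh, the sonic hedgehog ligand, was 8.72 in C-Myc-preSC 1, 8.12 in N-Myc-preSC 1 and 8.15 in N-Myc-preSC 2, against 5.23 in C-Myc-preSC 2, 6.02 in L-Myc-preSC 1 and 5.30 in L-Myc-preSC 2. The preSC arrays lay between 4.97 and 6.09, under every Pvt1-high array. Cdx2, an intestinal homeobox factor, was 7.49, 8.30 and 7.55 in the Pvt1-high arrays and at most 5.07 in the Pvt1-low and 5.31 in the preSC arrays. Sftpc, the surfactant protein C gene of alveolar type 2 cells, was 10.68 in C-Myc-preSC 1, 10.59 in N-Myc-preSC 1 and 11.10 in N-Myc-preSC 2, against 6.17 in C-Myc-preSC 2, 7.77 in L-Myc-preSC 1 and 6.43 in L-Myc-preSC 2. For Sftpc the preSC arrays were uneven, with 8.42 and 8.27 in preSC 1 and 2 and 6.06 in preSC 3. Of 30 club, alveolar and secretory genes with a probe set, 14 lay under the 40th percentile on all 9 arrays, including Scgb1a1 and Sftpa1. Sftpc was a higher and Wfdc2 a lower switch gene, and no other of the 15 tested was one (0.817% and 1.85% over all genes).

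Of 41 tested genes of growth factor signalling, 5 were higher and 2 lower switch genes (0.817% and 1.85% over all genes), with a median difference of 0.20 against 0.02 over all genes. The median was 0.11 without L-Myc-preSC 2. Beside Shh, these were Igfbp7, an insulin-like growth factor binding protein (2.58), Ntrk2, the receptor for brain-derived neurotrophic factor (2.23), the fetal growth factor Igf2 (2.22) and the activin subunit Inhbb (1.45). Igfbp7 and Inhbb were named after their values were seen. For several of them the preSC arrays did not stand with the Pvt1-low side. Inhbb was 8.47 to 9.22 in preSC, above both the Pvt1-high (7.01 to 7.34) and the Pvt1-low arrays (5.38 to 5.99). For Igf2, preSC 3 (12.12) lay above the Pvt1-high arrays (11.67 to 12.08), and L-Myc-preSC 1 was far below the rest at 8.19. Hgf, the ligand of the Met receptor, and Bmp2 were the lower ones, with differences of -2.42 and -1.73. Bmp2 was 10.38 to 11.21 in preSC, 9.82 to 9.88 in Pvt1-low and 7.99 to 8.29 in Pvt1-high arrays, so the 3 sets of arrays stepped down without overlap. Among 23 tested imprinted genes, Igf2 and Mest (2.29) were higher and Grb10 (-2.97) a lower switch gene, against 0.817% and 1.85% of all genes. Grb10, an adaptor that restrains insulin and growth factor receptors, was 10.09 to 10.49 on the Pvt1-low and 6.90 to 7.87 on the Pvt1-high side, and preSC 3 (7.51) fell within the Pvt1-high range while preSC 1 and 2 (9.03 and 9.10) lay between the sides.

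Metabolic genes on the higher side included Pfkl and Aldoa, enzymes of glycolysis, by 1.43 and 1.67. The 26 tested genes of hypoxia response and glycolysis had a median difference of 0.40, and in 12 of them the Pvt1-high arrays all lay above the Pvt1-low ones, against 1 below (20.9% and 20.1% over all genes). Aldoa was 10.81 to 11.08 in preSC, 10.42 to 10.60 in Pvt1-low and 11.98 to 12.39 in Pvt1-high arrays. In the cholesterol synthesis list 14 of 19 tested genes were higher without overlap and 0 lower (20.9% and 20.1% over all genes), at a median of 0.40, yet none had a gap of 1. Of 31 tested glutathione and xenobiotic genes Gpx2, Hmox1 and Gstm1 were higher switch genes, with differences of 2.38, 1.66 and 1.59. Over all genes the share was 0.817%, and the median of the list was 0.14. Gpx2, the gastrointestinal glutathione peroxidase gene, was uneven on the Pvt1-low side, at 8.03 in L-Myc-preSC 1 against 10.32 in C-Myc-preSC 2 and 10.50 in L-Myc-preSC 2. Hmox1, which encodes haem oxygenase 1, was 8.43 to 8.56 in Pvt1-high, 6.66 to 7.10 in Pvt1-low and 6.14 to 6.69 in preSC arrays.

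Ribosome biogenesis genes, a class of MYC targets, differed by a small amount at most members. In 35 of 48 tested genes (against 20.9% of all genes) the Pvt1-high arrays all lay above the Pvt1-low arrays, in 1 they lay below, and the median difference was 0.65. The median was 0.69 for C-Myc-preSC 1 minus C-Myc-preSC 2 and 0.62 for N-Myc minus L-Myc arrays. Against preSC the median was 1.20 for the Pvt1-high and 0.54 for the Pvt1-low arrays, so the medians of both sides lay above untransduced cells. Npm1, which encodes the nucleolar protein nucleophosmin, was 13.51 to 13.70 in Pvt1-high, 12.67 to 13.11 in Pvt1-low and 11.62 to 12.60 in preSC arrays; it was named after its values were seen. Only Noc2l, a nucleolar complex gene, reached the gap of 1, where 0.817% of all genes were higher switch genes. It was 9.82 in C-Myc-preSC 1, 9.41 in N-Myc-preSC 1 and 9.13 in N-Myc-preSC 2, against 7.18 in C-Myc-preSC 2, 7.27 in L-Myc-preSC 1 and 7.68 in L-Myc-preSC 2.

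Alcam and Lrrn1 were among the largest gaps on the lower side, and genes of the neural adhesion list were lower by less. Alcam, an immunoglobulin-family adhesion molecule gene, was 4.91 in C-Myc-preSC 1, 4.91 in N-Myc-preSC 1 and 4.70 in N-Myc-preSC 2, against 10.52 in C-Myc-preSC 2, 9.37 in L-Myc-preSC 1 and 10.70 in L-Myc-preSC 2. All 5 Alcam probe sets differed the same way, from -5.36 to -2.63, and the preSC arrays were 9.37, 9.46 and 10.41 on the brightest. Lrrn1, a leucine-rich repeat neuronal protein gene, was 4.23 to 4.24 on the Pvt1-high and 8.85 to 8.96 on the Pvt1-low side, with preSC arrays at 9.49 to 9.84, and its 2 dim probe sets differed by -0.11 and 0.10. Of 33 tested neural adhesion and cadherin genes, 4 were lower switch genes and 0 higher, 15 were lower without overlap and 1 higher, and the median was -0.53. Over all genes 1.85% were lower switch genes, 20.1% were lower and 20.9% higher without overlap. The switch genes were the protocadherin gene Pcdh10 (-3.10), the contactin genes Cntn3 (-3.03) and Cntn4 (-1.82) and the cadherin gene Cdh8 (-2.56). The median of this list against preSC was -0.44 in the Pvt1-low and -0.98 in the Pvt1-high arrays. In a separate list of 34 tested axon guidance genes, 2 were lower and 1 a higher switch gene (1.85% and 0.817% over all genes). Its median was -0.12, and 8 genes were lower and 7 higher without overlap. Epha3 and Sema3a, an ephrin receptor and a guidance ligand, differed by -2.26 and -2.03, and the semaphorin receptor gene Nrp2 by 1.86. The other probe sets of Epha3 differed by -0.36, -1.29 and -0.13. On the brightest Epha3 probe set the preSC arrays, at 3.59 to 3.75, stood with the Pvt1-high arrays, at 3.63 to 3.93. Kcnd2, a voltage-gated potassium channel gene, differed by -2.76, and by 0.14 on its dimmest probe set.

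Defining neuroendocrine markers were bright on both sides, while the median of the list was lower on the Pvt1-high side. Insm1, a neuroendocrine transcription factor gene, was 11.24 to 11.99 in the Pvt1-low and 11.64 to 12.05 in the Pvt1-high arrays, and Syp, which encodes the synaptic vesicle protein synaptophysin, 8.68 to 8.87 and 8.87 to 9.04. Chga, which encodes the granule protein chromogranin A, was 9.96 to 10.21 in the Pvt1-low and 9.43 to 9.71 in the Pvt1-high arrays, with preSC arrays at 10.86 to 11.33. Insm1, Syp and Chga were named after their values were seen. Of 37 tested neuroendocrine genes, Dll3, Gfi1 and Syt1 were lower and Vgf higher switch genes (against 1.85% and 0.817% of all genes), and the median was -0.25. Of the list 16 were lower without overlap against 5 higher, where 20.1% and 20.9% of all genes were. Against preSC its median was -0.67 in the Pvt1-high and -0.30 in the Pvt1-low arrays. The difference between the sides was -0.17 without L-Myc-preSC 1. Dll3, an inhibitory Notch ligand gene characteristic of small cell lung cancer, was 7.42 in C-Myc-preSC 1, 7.30 in N-Myc-preSC 1 and 7.02 in N-Myc-preSC 2, against 9.17 in C-Myc-preSC 2, 9.59 in L-Myc-preSC 1 and 9.20 in L-Myc-preSC 2. The preSC arrays were 9.66, 9.45 and 9.76, and so stood with the Pvt1-low arrays. Gfi1, a zinc finger repressor gene, was 8.07 to 8.33 against 9.78 to 10.07, and Syt1, the synaptic calcium sensor gene, 8.85 to 9.21 against 10.28 to 10.52. Cartpt, a neuropeptide gene, was 5.92 to 6.48 on the Pvt1-high and 10.25 to 10.57 on the Pvt1-low side, and the preSC arrays lay between, at 7.10 to 8.64.

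Leukocyte, stromal and endothelial markers had low mean levels on both sides. The mean level over 18 leukocyte markers was 5.20 to 5.34 in the Pvt1-high, 5.18 to 5.23 in the Pvt1-low and 5.10 to 5.18 in the preSC arrays, and Ptprc, Itgam and Cd52 were among the 9 under the 40th percentile on all 9 arrays. Over 16 fibroblast and stromal markers the level was 5.13 to 5.26, 5.19 to 5.37 and 5.17 to 5.32, with Col1a1, Col1a2 and Col3a1 under that percentile on all 9 arrays. For 15 endothelial markers it was 5.21 to 5.50, 5.31 to 5.38 and 5.61 to 5.73, with Pecam1 and Cdh5 under it. Only 7 leukocyte, 8 stromal and 7 endothelial markers were tested, and none was a switch gene. Over all genes 0.817% were higher and 1.85% lower switch genes, so nothing is read from this count. In bulk samples, fewer cells with a gene and less RNA per cell cannot be told apart.

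Interferon-related and lysosomal protease genes were among the lower switch genes. Of 25 tested interferon and antigen presentation genes, 4 were lower switch genes and 0 higher, 12 were lower without overlap against 3 higher, and the median was -0.24. Over all genes these shares were 1.85% and 0.817%, and 20.1% and 20.9%. With 1 array left out the median ran from -0.55 (without L-Myc-preSC 1) to -0.17, and it was -0.50 without both N-Myc arrays. Ifit2, an interferon-induced tetratricopeptide repeat gene, was 4.73 in C-Myc-preSC 1, 5.03 in N-Myc-preSC 1 and 5.17 in N-Myc-preSC 2, against 8.57 in C-Myc-preSC 2, 8.92 in L-Myc-preSC 1 and 8.73 in L-Myc-preSC 2. The preSC arrays stood with the Pvt1-low side at 8.67 to 8.92. Psmb8 and Psmb9, which encode catalytic subunits of the immunoproteasome, differed by -3.15 and -1.75, and Ifih1, a cytosolic RNA sensor gene, by -1.43. Psmb8 was 9.40 to 9.99 in preSC, 8.11 to 8.80 in Pvt1-low and 4.97 to 5.59 in Pvt1-high arrays. Among 40 tested lysosomal genes the switch genes were those of the proteases Ctsz, Ctsc and Ctso, against 1.85% of all genes as lower ones. Their differences were -8.11, -3.24 and -2.65. The list as a whole had a median of -0.09, and 7 of its genes were higher and 10 lower without overlap, near the 20.9% and 20.1% over all genes. The median ran from -0.15 without L-Myc-preSC 2 to -0.0086 without L-Myc-preSC 1.

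Of 29 tested genes of the homeobox list Pou3f4 and Meis2 were lower switch genes and 0 higher (1.85% and 0.817% over all genes). Their differences were -2.99 and -1.81. The list had a median of 0.08, with 4 genes higher and 7 lower without overlap (20.9% and 20.1% over all genes). Cdx2, a homeobox gene outside this list, was a higher switch gene with a difference of 2.85. Mlxipl, the glucose-responsive partner of MLX also called ChREBP, was the only switch gene of 14 tested in the MYC network. It was 5.30 to 5.48 against 7.15 to 8.21, and 1.85% of all genes were lower switch genes. The noncoding RNA Neat1, the scaffold of paraspeckles, was 5.57 in C-Myc-preSC 1, 6.31 in N-Myc-preSC 1 and 6.31 in N-Myc-preSC 2 on its brighter probe set, against 9.09 in C-Myc-preSC 2, 8.66 in L-Myc-preSC 1 and 8.99 in L-Myc-preSC 2. Its other probe set differed by -0.01, so Neat1 is given no single direction. The mitotic cyclin gene Ccnb2 was the only switch gene of 39 tested cell cycle genes, where 1.85% of all genes were lower switch genes. It was 10.02 to 10.22 against 11.57 to 11.82. Of that list 17 were lower without overlap against 3 higher (20.1% and 20.9% over all genes), at a median of -0.19, which was -0.05 without L-Myc-preSC 1.

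Position on the chromosomes was a feature that the rule did not use. The 732 tested genes of chromosome 9 had a median difference of -0.50 and the 450 of chromosome 19 also of -0.50, while the medians of the 18 other chromosomes lay between -0.07 and 0.14. On chromosome 9 the Pvt1-high mean was below the Pvt1-low mean at 84.7% of the genes, and on chromosome 19 at 85.8%. All 3 Pvt1-high arrays lay below all 3 Pvt1-low arrays at 59.3% and 59.6% of the genes of these chromosomes, against 11.0% to 25.1% on the others and 20.1% over all genes. Against the preSC mean, the chromosome 9 median was -0.58 in C-Myc-preSC 1, -0.64 in N-Myc-preSC 1 and -0.65 in N-Myc-preSC 2, and the chromosome 19 median -0.51, -0.46 and -0.48. In C-Myc-preSC 2, L-Myc-preSC 1 and L-Myc-preSC 2 the chromosome 9 medians were -0.14, -0.07 and -0.13, and the chromosome 19 medians -0.02, 0.03 and -0.02. Each Pvt1-high array thus lay below each Pvt1-low array on both chromosomes. Within the C-Myc label alone the medians were -0.43 and -0.45 for C-Myc-preSC 1 minus C-Myc-preSC 2, and for N-Myc minus L-Myc arrays they were -0.53 on each. Without the switch genes the medians were -0.46 and -0.48, and with the second-brightest probe sets -0.55 and -0.49.

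**Figure D4:**
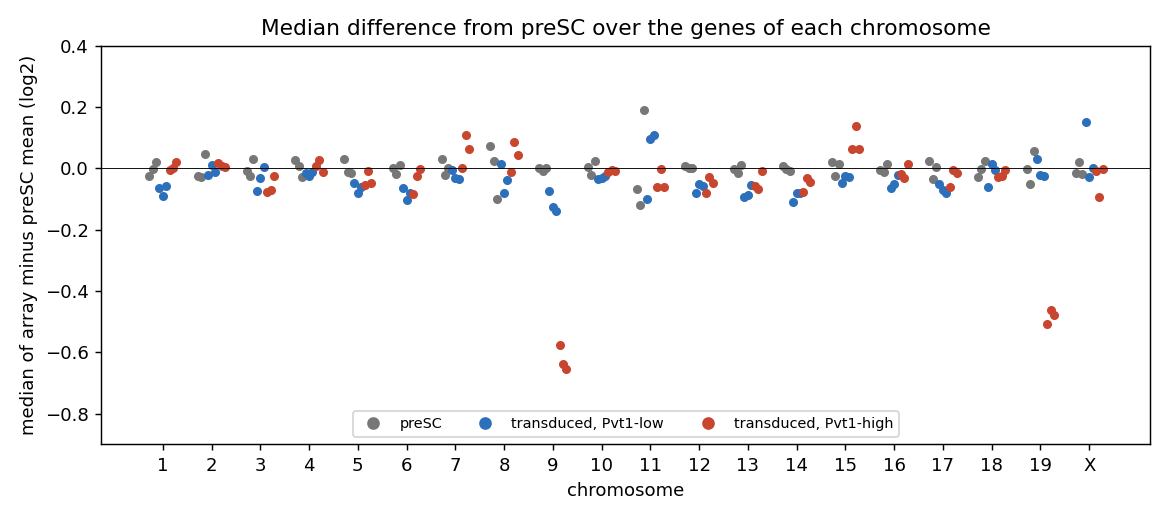
Median over the tested genes of each chromosome (horizontal axis) of an array's value minus the mean of the preSC arrays, on the log2 scale (vertical axis); each point is 1 array, grey for preSC, blue for Pvt1-low and red for Pvt1-high. The 3 Pvt1-high arrays lie at -0.46 or below on chromosomes 9 and 19, apart from all others.

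Chromosomes 9 and 19 held 9.11% of the genes tested and 54 of the 240 lower switch genes (22.5%), with 1 of the 106 higher ones. Those on chromosome 9 included Plscr4 and Plscr1, which encode phospholipid scramblases, with Plscr4 at 3.88 to 4.50 against 8.51 to 9.77 and Plscr1 at 3.76 to 4.33 against 7.29 to 8.29. Ccnb2 lies there too, and Plscr1 was named after its values were seen. On chromosome 19 were Ifit2, Neat1 and the lipase family gene Lipo3, which was 5.48 to 6.11 against 9.78 to 10.44. Ctsz and Wfdc2 are on chromosome 2 and Phtf2 on chromosome 5, and their neighbours did not share the size of their differences. The 3 tested genes on either side ranged from -1.62 to 0.04 for Ctsz, from -0.49 to 0.38 for Wfdc2 and from -2.88 to 0.12 for Phtf2. Beside Ctsz it was Npepl1, 3 tested genes away, that reached -1.62 and was itself a switch gene, named after its value was seen, and beside Phtf2 none had a gap of 1. The neighbours of Klhl41 ranged from -0.46 to 0.22.

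The end of chromosome 4 went the other way. From Ube4b to Noc2l, the last tested gene, 83 of 90 genes had a higher mean in the Pvt1-high arrays, with a median difference of 0.93, whereas the 709 tested genes before Ube4b had a median of -0.01. The segment held 16 of the 106 higher switch genes and 0 lower ones, where 0.817% and 1.85% of all genes were such genes. Of its genes 66 were higher without overlap against 2 lower, where 20.9% and 20.1% of all genes were. Its switch genes included Park7, which encodes the redox protein DJ-1, Dvl1, a Wnt pathway scaffold gene, Atad3a, a mitochondrial membrane ATPase gene, Prxl2b and Noc2l, the single switch gene of the ribosome biogenesis list. Prxl2b was 8.81 in C-Myc-preSC 1, 8.17 in N-Myc-preSC 1 and 8.45 in N-Myc-preSC 2, against 5.54 in C-Myc-preSC 2, 6.05 in L-Myc-preSC 1 and 5.37 in L-Myc-preSC 2. Park7 was 11.87 to 12.14 against 10.51 to 10.74. Park7, Dvl1 and Atad3a were named after their values were seen. Against the preSC mean the median of the segment was 0.74, 0.65 and 0.68 in C-Myc-preSC 1, N-Myc-preSC 1 and N-Myc-preSC 2, and -0.11, -0.12 and -0.08 in C-Myc-preSC 2, L-Myc-preSC 1 and L-Myc-preSC 2. With the second-brightest probe sets of 40 genes the difference was 0.98. The start of the segment was set after its values were seen. Among runs of 25 neighbouring genes, 25 of 47 on chromosomes 9 and 19 had a median difference of -0.5 or lower, against 1 of 427 on the chromosomes other than 4, 9 and 19. On chromosome 4, 3 of 31 reached 0.5 or higher, against 1 of those 427. DNA was not measured, so copy number is not known here.

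**Figure D5:**
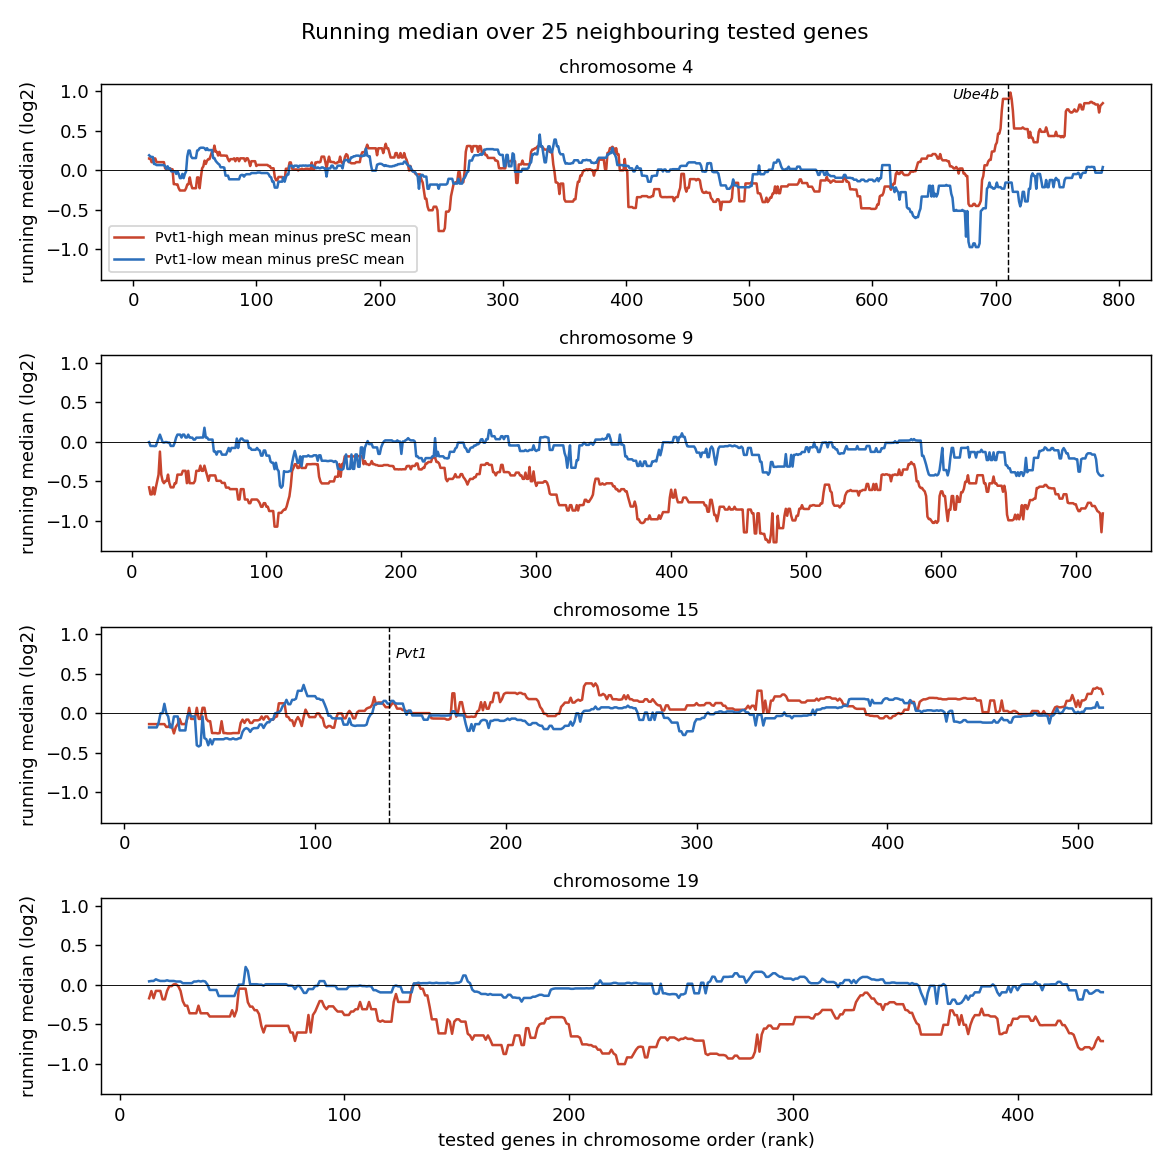
Running median over 25 neighbouring tested genes (vertical axis, log2 scale) against the rank of the gene along chromosomes 4, 9, 15 and 19 (horizontal axis), for the Pvt1-high mean (red) and the Pvt1-low mean (blue), each minus the preSC mean. The red line lies below the blue one along most of chromosomes 9 and 19 and above it from Ube4b to the end of chromosome 4, while at Pvt1 on chromosome 15 both lie close together near 0.

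A further stretch of chromosome 4 divided the Pvt1-low arrays themselves. From Eif4g3 to Exosc10, 75 tested genes had a median of -1.24 in L-Myc-preSC 2 and -1.35 in C-Myc-preSC 2 against the mean of preSC 1 and 2, but of -0.09 in L-Myc-preSC 1. In preSC 3 it was -1.12, and in the Pvt1-high arrays C-Myc-preSC 1, N-Myc-preSC 1 and N-Myc-preSC 2 it was -0.36, -0.22 and -0.37. L-Myc-preSC 2 and C-Myc-preSC 2 thus lay near each other and preSC 3 here, and far from L-Myc-preSC 1. These limits were chosen after the values were seen.

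The labels name polyA RNA for preSC and L-Myc arrays and total RNA for C-Myc and N-Myc arrays, and the descriptions of the C-Myc and N-Myc arrays share an identifier. C-Myc-preSC 2 thus lies on the Pvt1-low side with the total RNA label. These descriptions also carry a number whose meaning the labels do not give, 40 for C-Myc-preSC 1, 39 for N-Myc-preSC 1 and 40 for N-Myc-preSC 2, against 42 for C-Myc-preSC 2. Among the C-Myc and N-Myc arrays alone, without the L-Myc arrays, 346 genes were higher and 553 lower by the same gap. C-Myc-preSC 2 alone then stood for the Pvt1-low side. Leaving out arrays can only keep or raise such counts, so nothing is read from them about the RNA label. The 18S control was 8.36 to 9.20 in Pvt1-high, 8.03 to 9.27 in Pvt1-low and 12.80 to 13.92 in preSC arrays. The Actb 5′ probe set minus the 3′ one was -0.29 to -0.20 in Pvt1-high, -0.31 to -0.22 in Pvt1-low and -0.85 to -0.62 in preSC arrays. The same difference for Gapdh was 0.17 to 0.19 in Pvt1-high, 0.21 to 0.24 in Pvt1-low and -0.13 to -0.02 in preSC arrays. The Gapdh difference thus separated the sides without overlap, 18S and Actb did not, and the part of these controls in the split was not tested. The preSC arrays also lay apart from the transduced arrays in these controls, and the part of this in the comparisons with preSC was not tested. Eif2s3y, a Y-linked gene, was 8.54 in L-Myc-preSC 1 and 9.63 to 10.25 in the 5 other transduced arrays, and Xist was at most 5.38 in all 9 arrays.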

How the data were processed

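RNA of 9 arrays was compared, grouped by their sample titles. The authors deposited log2 values, with 1 value for each probe set on each array. These came from RMA according to the submitters' processing notes, run through affy under R 3.0.1, and no affy version was found in the sources used here. RMA forces a common distribution on the arrays, which hides a shift shared by most transcripts, and it compresses differences of dim probe sets. Array medians were 6.02 to 6.07, and no scaling was added. Of 45101 probe sets, 34945 named 1 gene in the platform annotation, 932 named several and 9211 were not listed. Each of 18193 genes was represented by its probe set of highest mean, and the 12976 genes above the 40th percentile of an array in at least 2 arrays were tested. Chromosome and gene order were taken from RefSeq (GRCm38.p6) for 12913 of them.

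Labelled groups were compared with preSC by limma 3.58.1 (R 4.3.3; lmFit and eBayes, two-sided, Benjamini-Hochberg at 0.05, 5 residual degrees of freedom). The Pvt1 sides were only described. Named genes come from the 5 marker genes, the 15 largest gaps in each direction without predicted genes, up to 4 switch genes of each of 32 lists, the MYC genes, Rb1, Rbl2, Xist, Eif2s3y and the neighbours of Pvt1; others are said to have been named after their values were seen. The members and lists were chosen with earlier results of these data known. The switch rule and the limma script were tested on simulated data. Alternatives were other gaps, filters, probe sets and scalings, a replicate block, and leaving out arrays.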

Additional observations from a re-analysis of the deposited data

Results flagged for a closer look

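Probe sets with no single gene name were not part of the comparison. Of 4896 such probe sets above the same filter, 22 were higher and 76 lower in the Pvt1-high arrays by a gap of at least 1. Both shares were under the 0.817% and 1.85% over the genes tested, so nothing is read from these counts. Among the 22 higher probe sets, 11 also lay at least 1 above every preSC array in all 3 Pvt1-high arrays. The matching share of the named switch genes is not given here. These 11 probe sets were flagged because they lie outside the comparison and exceed the untransduced controls, and no gene is given to them here.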

How the results depend on the processing

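The number of switch genes followed the gap and the arrays. It was 436 higher and 716 lower with a gap of 0.5, 12 and 57 with a gap of 2, and 42 and 93 with the second-brightest probe set. Leaving out 1 transduced array gave 118 to 291 higher and 257 to 484 lower genes, the highest of both without L-Myc-preSC 1. Without both L-Myc-preSC arrays it was 346 and 553, and without both N-Myc-preSC arrays 214 and 376. Leaving out arrays could only keep or raise the number, because the gap is taken between the nearest arrays of the sides. The other filters, scalings and the mean of probe sets kept both counts within 1.5 times. For limma against preSC, leaving out 1 array gave 544 to 2858 genes for N-Myc-preSC (3740 with all; 565 and 544 without N-Myc-preSC 1 and 2, 2106 and 1832 without preSC 1 and 2). It gave 600 to 1139 for L-Myc-preSC (1748 with all; 905 and 605 without L-Myc-preSC 1 and 2, and 712, 600 and 1139 without preSC 1, 2 and 3). For C-Myc-preSC it gave 1360 to 3486 (3048 with all; 1573 without C-Myc-preSC 1, 1583 and 1360 without preSC 1 and 2). A lone array is then assumed to vary like the other groups. With the replicate number as a block (replicate block), the L-Myc-preSC count was 1033, and those of N-Myc-preSC and C-Myc-preSC, 2845 and 2389, stayed within 1.5 times. Deviations of same-numbered arrays from their group means correlated at 0.14 to 0.44 among the transduced groups and at 0.13 to 0.65 with preSC 1, but at -0.68 to -0.01 with preSC 2. The 2 arrays of a transduced group deviate from their mean by equal and opposite amounts, and preSC 1 and 2 lay close together. Opposite signs with preSC 1 and preSC 2 therefore follow largely from this layout. These correlations cannot decide whether the numbers pair the arrays with preSC, and no pairing was assumed. Other filters, scalings, trend and probe sets kept these counts within 1.5 times.

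The chromosome 9 median of -0.50 was -0.55 with second-brightest probe sets, -0.46 without switch genes and -0.44 without both N-Myc-preSC arrays. That of chromosome 19 was -0.44 without both L-Myc-preSC arrays. The end segment of chromosome 4, at 0.93, was 0.98 with second-brightest probe sets, 0.82 without switch genes and 0.98 without both N-Myc-preSC arrays. Leaving out 1 array gave -0.52 to -0.47, -0.53 to -0.49 and 0.89 to 0.94 for these regions. These alternatives for regions and lists were chosen after seeing the data. Of 70 named switch genes, 5 turned sign on 1 other probe set: Lrrn1 (0.10), Klhl22 (0.20), Emp1 (0.0457), Dtx1 (0.18) and Kcnd2 (0.14); the cause was not tested. None of the 70 turned sign under another scaling. Leaving out arrays could not turn a sign, because the rule puts every array of one side above every array of the other. Values near the low end of the arrays limit the size of the largest gaps.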
